A study of Rattus norvegicus with 74 samples.

Results

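The miR-30 microRNAs were followed in the kidney of Fischer rats (strain F344) from 2 to 104 weeks of age. Members were all array miRNAs whose name marks them as miR-30a, miR-30b, miR-30c, miR-30d or miR-30e and that gave a signal on at least 1 array, which left 11 of the 311 miRNAs detected and of the 677 on the array. They comprised 5 guide arms (rno-miR-30a-5p, rno-miR-30b-5p, rno-miR-30c-5p, rno-miR-30d-5p and rno-miR-30e-5p) and 6 passenger arms (rno-miR-30a-3p, rno-miR-30b-3p, rno-miR-30c-1-3p, rno-miR-30c-2-3p, rno-miR-30d-3p and rno-miR-30e-3p), written below without the rat prefix. The study profiled 74 rats with 1 single-colour Agilent array each, 36 females and 38 males. Ages were 2 weeks, then 5, 6 and 8 weeks, then 15 and 21 weeks, and last 78 weeks and 104 weeks. Each of the 16 groups held 4 or 5 animals. No animal was treated, no allele was modified, and females were not matched for the stage of the estrous cycle. Total RNA came from whole ground kidney, so the values are averages over all of its cells. In such bulk samples, fewer cells of a type cannot be told apart from less RNA per cell, and podocytes cannot be told apart from tubules.

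A microRNA gene is transcribed as a hairpin that is cut to a duplex of 2 strands. One strand, the guide, is loaded into an Argonaute protein and pairs through its seed with target messages, while the other, the passenger, is mostly discarded. The miR-30 guides share 1 seed and are abundant in kidney epithelium, where the family is known for its role in nephron development and in keeping podocytes, the filtering cells of the glomerulus, intact.

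Mature sequences of 6 members were found in the RefSeq annotation of rat build GRCr8 and are shown because the shared seeds and the few differing bases decide which members a probe or a target can distinguish. They are written 5′ to 3′ with the seed, bases 2 to 8, in capitals. The 3 guides shown share the seed GUAAACA.
miR-30a-5p: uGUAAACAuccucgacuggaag
miR-30e-5p: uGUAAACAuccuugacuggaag
miR-30c-5p: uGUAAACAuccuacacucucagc
The passengers held other seeds, and those of the miR-30c hairpins shared UGGGAGA.
miR-30c-1-3p: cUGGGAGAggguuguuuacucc
miR-30c-2-3p: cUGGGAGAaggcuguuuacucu
miR-30a-3p: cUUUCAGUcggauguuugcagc

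With positions counted from 1 at the 5′ end and the base of the first-named member given first, miR-30a-5p and miR-30e-5p differed only by C13U. From miR-30a-5p to miR-30c-5p the differences were C13A, G14C, G18C, G19U and A20C. The passengers miR-30c-1-3p and miR-30c-2-3p differed by G9A, U12C and C22U. Outside the family, the guide seed was also carried by miR-384-5p. The hairpins lay in pairs. Mir30a (miR-30a-5p at chr9:33233946-33233967, plus strand; miR-30a-3p at chr9:33233987-33234008) lay 19670 bases from Mir30c2 (miR-30c-5p at chr9:33253695-33253717, plus strand; miR-30c-2-3p at chr9:33253735-33253756). On the minus strand of chromosome 5, Mir30c1 (miR-30c-5p at chr5:139634505-139634527; miR-30c-1-3p at chr5:139634467-139634488) lay 2906 bases from Mir30e (miR-30e-5p at chr5:139637504-139637525). Both miR-30c hairpins give the same guide, so its signal could come from either. The other members are miR-30b-5p, miR-30b-3p, miR-30d-5p, miR-30d-3p and miR-30e-3p.

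Values are relative intensities, meaning the summed probe signal of a miRNA divided by the array's 75th percentile over the 311 detected miRNAs. A value of 1 is that percentile, and differences are on the log2 scale. A difference was called where the limma test, with the Benjamini-Hochberg adjustment over 311 miRNAs, gave an adjusted p under 0.05 and the fold reached 1.5. Of the 11 members, 10 were detected on all 74 arrays, while miR-30d-3p was detected on 50. All values below a floor of 0.0171 were raised to it, detected ones included. In 2-week males miR-30d-3p was detected on 2 of 5 arrays, yet all 5 values lay at the floor. Arrays detected 190 to 264 miRNAs, and no miRNA spot was saturated. Arrays of 2 to 8 weeks and of 15 to 104 weeks sat on different slides apart from 1 array, so only differences within either span are free of that split. The RNA had the miRNAs of kidney: 8 of 9 epithelial markers were detected, and their summed relative intensity was 27.1 to 63.3. One library, 2-week male replicate 1, had a relative intensity of 23.6 for miR-122-5p, the main liver miRNA, against 5.82 in the next highest array and a median of 0.0906.

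Across the 8 ages in males, 3 of 11 members were called, all guides, miR-30b-5p, miR-30c-5p and miR-30e-5p, beside 45.3% of all miRNAs. The group means of miR-30b-5p in males ran from 2.44 ± 0.260 (SD, n = 5) at 2 weeks through 4.31 ± 1.01 (n = 4) at 8 weeks to 5.26 ± 0.420 (n = 5) at 21 weeks, and then to 3.15 ± 0.525 (n = 5) at 78 weeks and 3.82 ± 0.630 (n = 4) at 104 weeks. The range of its log2 means was 1.11 (adjusted p = 1.15e-06, limma). miR-30e-5p ran from 3.16 ± 0.314 (n = 5) at 2 weeks to 5.71 ± 0.567 (n = 5) at 15 weeks and back to 3.43 ± 0.319 (n = 4) at 104 weeks, a range of 0.85 (adjusted p = 6.02e-05, limma). Both had their lowest mean at 2 weeks, and means at 78 and 104 weeks that lay below those at 15 or 21 weeks. Both calls were also made among 2 to 8 weeks alone and among 15 to 104 weeks alone. miR-30c-5p ranged over 0.66 (adjusted p = 0.00473) and was called among 15 to 104 weeks alone (0.65, adjusted p = 0.00162) but not among 2 to 8 weeks (0.32, adjusted p = 0.524). That call was also lost with quantile normalization (0.41, adjusted p = 0.133) and, through the fold, with the percentile over miRNAs present on all arrays (0.57, adjusted p = 0.000392). Without the fold limit 7 of 11 members had an adjusted p under 0.05, beside 58.8% of all miRNAs. The further ones were the guide miR-30a-5p (0.50) and the passengers miR-30e-3p (0.52, adjusted p = 0.00446), miR-30a-3p (0.43, adjusted p = 0.0301) and miR-30c-2-3p (0.39, adjusted p = 0.0353).

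In females 1 of 11 members was called with age, beside 36.7% of all miRNAs. It was miR-30c-5p, from 11.7 ± 1.94 (SD, n = 5) at 6 weeks to 19.4 ± 3.31 (n = 5) at 104 weeks, and the range of its log2 means was 0.73 (adjusted p = 0.0146, limma). That call was absent within either span of ages (0.33 with adjusted p = 0.523 at 2 to 8 weeks, 0.41 with adjusted p = 0.236 at 15 to 104 weeks), and its extremes lay on different slides. The female range of miR-30b-5p was 0.78 (adjusted p = 0.0564) and that of miR-30e-5p was 0.35 (adjusted p = 0.25).

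**Figure D1:**
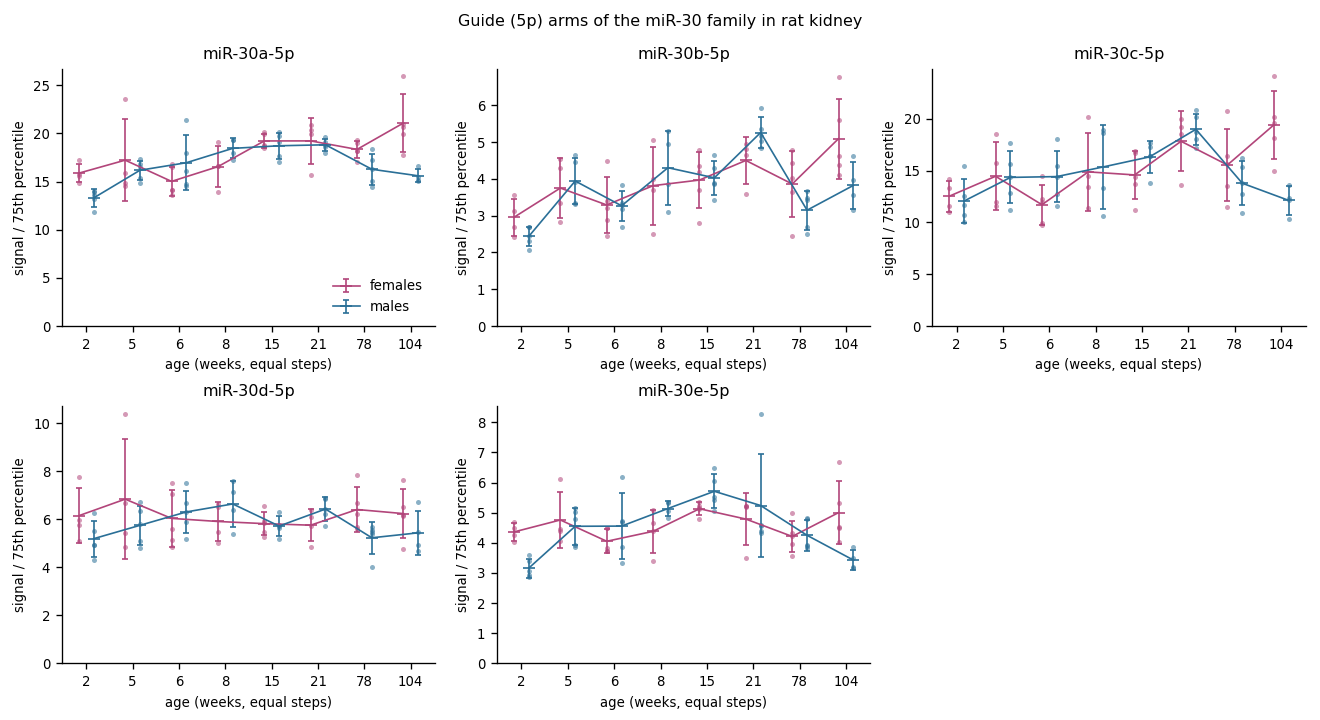
Relative intensity of the 5 guide arms (signal over the array's 75th percentile) by age in weeks, drawn at equal steps, in females and males. Points are arrays and dashes are group means with SD (n = 4 or 5). For miR-30e-5p the 2-week males lie between 2.85 and 3.58, below all 2-week females.

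Order over the 16 groups was shallow for the other members. The highest group mean exceeded the lowest by 2.16-fold for miR-30b-5p, 1.81-fold for miR-30e-5p, 1.66-fold for miR-30c-5p, 1.59-fold for miR-30a-5p and 1.32-fold for miR-30d-5p. Males of 2 weeks were the lowest group for 4 of the 5 guides, the exception being miR-30c-5p. The 5 passengers detected on all arrays spanned 1.49-fold to 1.60-fold, and all 5 were highest in females of 78 weeks. In each member, at most 2 of the 15 steps between neighbouring groups in this order exceeded the larger of the SDs of both groups. The exact order is thus not resolved between most neighbours. Groups sorted by their means take small steps by construction, so this does not show whether groups further apart differ.

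**Figure D2:**
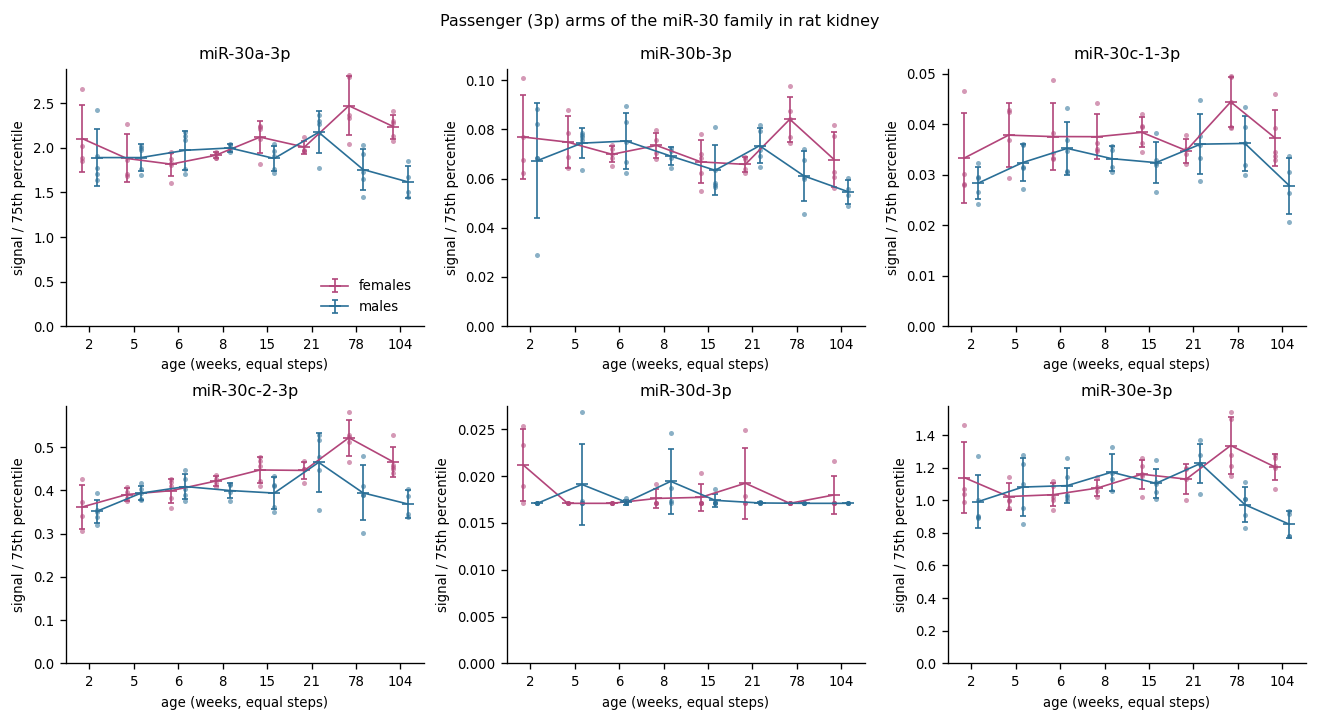
Relative intensity of the 6 passenger arms by age in weeks, drawn at equal steps, in females and males, with arrays as points and dashes as group means with SD (n = 4 or 5). At 78 weeks miR-30a-3p lies between 2.04 and 2.82 in females and between 1.45 and 2.03 in males, and many values of miR-30d-3p lie at the floor of 0.0171.

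The comparison of 8 with 2 weeks asks how the family changed from the youngest age to 8 weeks. In males, miR-30b-5p and miR-30e-5p rose, and all 11 members had a positive difference, or 9 with the median as the scale. The direction was not shared by all probes of the dim passengers. For miR-30b-3p (0.14, adjusted p = 0.598, limma), the 3 probes with a signal on every array stood at -0.13 to -0.11. For miR-30c-1-3p (0.23, adjusted p = 0.178, limma), the 2 such probes stood at -0.20 and 0.23. For miR-30e-5p the 2-week males measured 2.85, 3.58, 3.40, 2.92 and 3.06 and the 8-week males 5.35, 5.05, 4.83 and 5.32. Every 8-week male was above every 2-week male, and the difference was 0.71 (SE 0.147, adjusted p = 4.47e-05). For miR-30b-5p the 2-week males measured 2.08, 2.68, 2.69, 2.45 and 2.30 and the 8-week males 4.96, 3.11, 3.85 and 5.30. These groups did not overlap either, although the 8-week values spread widely, and the difference was 0.79 (SE 0.181, adjusted p = 0.000168). miR-30a-5p had the same separation at a smaller size, with 11.8 to 14.0 at 2 weeks and 17.2 to 19.3 at 8 weeks, and a difference of 0.47 (SE 0.0993, adjusted p = 4.84e-05) that did not reach 1.5-fold.

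The 2 calls among 11 stood beside 29.9% of all miRNAs called in that comparison. Without the fold limit, 5 members were higher with an adjusted p under 0.05, beside 22.2% of all miRNAs, the further ones being miR-30d-5p (0.35, adjusted p = 0.0484) and miR-30e-3p (0.25, adjusted p = 0.0488). That count was 5 with quantile normalization and 3 under each of the other scalings run. Without 2-week male replicate 1, miR-30d-5p stood at 0.38 (adjusted p = 0.0492, limma) and miR-30e-3p at 0.21 (adjusted p = 0.122). Groups lay apart upward for 3 members, beside 20.6% of all miRNAs. The median difference was 0.47 over the guides, 0.18 over the passengers and 0.00 over all miRNAs tested. Epithelial markers moved in the same direction. Their sum was 27.1 to 31.4 in 2-week and 50.2 to 51.5 in 8-week males, with 4 of 8 called higher. The sum of the 5 fibroblast and smooth muscle markers was 28.6 to 31.7 and 18.9 to 20.8, with 3 called lower. The leukocyte sum was 1.69 to 1.86 and 2.59 to 3.35, with 2 of 4 called higher. The liver marker was called lower and 1 of 3 striated muscle markers higher. The part of these markers in the result was not tested. Without 2-week male replicate 1, the array highest in miR-122-5p, the differences were 0.74 for miR-30b-5p (adjusted p = 0.000933) and 0.67 for miR-30e-5p (adjusted p = 0.000244). Under other scalings the miR-30e-5p difference was 0.53 (median as the scale) and 0.51 (quantile), below 1.5-fold. Both calls were lost with normexp background correction. There miR-30b-5p stood at 0.43 (adjusted p = 0.059, limma) and miR-30e-5p at 0.56 (adjusted p = 0.0328), below 1.5-fold.

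In females no member was called between 2 and 8 weeks by limma or by the methods' tests, beside 21.2% of all miRNAs, and 2 had an unadjusted p under 0.05. Those 2 kept an adjusted p under 0.05, beside 31.8% of all miRNAs, miR-30c-2-3p with a difference of 0.23 (adjusted p = 0.0499) and miR-30d-3p with -0.25 (adjusted p = 0.0398). The latter was detected on all 4 arrays of 2-week females and on 2 of 4 of 8-week females, so its difference rests partly on the floor. For miR-30e-5p the 2-week females measured 4.02, 4.48, 4.69 and 4.25 and the 8-week females 4.40, 3.39, 4.65 and 5.08. These ranges overlapped, with a difference of -0.01 (SE 0.155, adjusted p = 1). Marker sums moved in females as well. The epithelial sum was 35.2 to 37.9 in 2-week and 44.7 to 51.5 in 8-week females, with 1 of 8 called higher. The fibroblast and smooth muscle sum was 26.7 to 31 and 19.4 to 22.4, with 3 of 5 called lower. The leukocyte sum was 2 to 2.12 and 2.68 to 3.31, with 2 of 4 called higher. The part of these markers was not tested.

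The change from 2 to 8 weeks differed between the sexes for 3 of 11 members, beside 12.5% of all miRNAs. Taken as the male change minus the female change, it was 0.71 for miR-30e-5p (SE 0.213, adjusted p = 0.0151), 0.42 for miR-30a-5p (SE 0.144, adjusted p = 0.0398) and 0.42 for miR-30d-3p (SE 0.134, adjusted p = 0.0248). The last is set by the floor, at which all 5 of the 2-week males stood, and with the floor set before scaling it was 1.05 (adjusted p = 0.0712). The test depended on single arrays. Without 8-week female replicate 2, the lowest 8-week female for both guides, the values were 0.59 for miR-30e-5p (adjusted p = 0.0743) and 0.34 for miR-30a-5p (adjusted p = 0.186). The miR-30a-5p result was lost on leaving out any of 10 arrays and the miR-30d-3p result on leaving out any of 4. For miR-30b-5p the difference of changes was 0.45 (adjusted p = 0.361). Scaled over all 677 miRNAs, 0 members passed, and with quantile normalization 1 did.

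The sexes were also compared at 2 weeks, where all 11 members had a lower mean in males. That direction held for 9 to 11 members over the scalings run. No member reached 1.5-fold with an adjusted p under 0.05, beside 3.86% of all miRNAs called. Without the fold limit 2 members were lower, beside 8.04% of all miRNAs: miR-30e-5p by a difference of -0.47 (SE 0.147, adjusted p = 0.0245) and miR-30d-3p by -0.29 (adjusted p = 0.0245). All 5 values of miR-30d-3p in 2-week males lay at the floor, so its difference has no exact size, and it was -0.86 with the floor set before scaling. Each 2-week male was below each 2-week female for miR-30e-5p, as for miR-30a-5p, 2 members whose groups lay apart beside 6.43% of all miRNAs, and within the 4 slides that held both sexes the difference was -0.62 to -0.40. Without 2-week male replicate 1 it was -0.43 (adjusted p = 0.0634), and scaled to the percentile over all 677 miRNAs it was -0.42 (adjusted p = 0.156). With the percentile over miRNAs present on all arrays it was -0.63 (adjusted p = 0.00163) and called, and 6 members were lower with an adjusted p under 0.05, where the general median was -0.20. Other miRNAs differed between the sexes at this age. The epithelial sum was 35.2 to 37.9 in females and 27.1 to 31.4 in males, though 0 of 8 epithelial markers were called lower. miR-122-5p was 0.0774 to 0.107 in females and 0.397 to 23.6 in males. The part of these miRNAs in the result was not tested.

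The comparison of 104 with 21 weeks sets old age against the young adult. In males miR-30c-5p fell, and 10 of 11 members had a negative difference of -0.65 to -0.25 while miR-30d-3p was at 0.00. miR-30c-5p measured 18.0, 17.2, 18.7, 20.8 and 20.2 in 21-week males and 12.4, 12.2, 13.6 and 10.3 in 104-week males. All old values were below all young ones, and the difference was -0.65 (SE 0.169, adjusted p = 0.0018), or -0.60 (adjusted p = 6.02e-05) with slide as a fixed block. miR-30e-5p measured 4.57, 8.27, 4.60, 4.34 and 4.40 at 21 weeks and 3.21, 3.15, 3.85 and 3.49 at 104 weeks. One young male, replicate 2, lay well above the rest, and the groups did not overlap, with a difference of -0.57 (SE 0.147, adjusted p = 0.00164) at a fold of 1.48. The passenger of the same hairpin, miR-30e-3p, measured 1.22, 1.04, 1.28, 1.22 and 1.37 at 21 weeks and 0.780, 0.934, 0.916 and 0.781 at 104 weeks. It too lay apart, with a difference of -0.52 (SE 0.105, adjusted p = 6.51e-05).

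The single call among 11 members stood beside 14.8% of all miRNAs, and without the fold limit 9 members were lower beside 25.1% of all miRNAs. The other members lower at that level were miR-30a-3p (-0.43), miR-30a-5p (-0.27), miR-30b-3p (-0.42), miR-30b-5p (-0.47), miR-30c-1-3p (-0.38) and miR-30c-2-3p (-0.32). Groups lay apart downward for 6 members, beside 16.1% of all miRNAs. Guides and passengers moved alike, with medians of -0.47 and -0.40. The median of the 166 miRNAs detected on all arrays was itself -0.20, so the members' median of -0.42 was -0.22 relative to it.

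That general median depended on the scale. When the percentile was limited to miRNAs present on all arrays, the general median was 0.12, 9 members were lower and 2 higher, 0 members had an adjusted p under 0.05, and miR-30c-5p stood at -0.33 (adjusted p = 0.0616). Under quantile normalization miR-30c-5p stood at -0.31 (adjusted p = 0.12). Relative to the general median, the members' median was -0.23 to -0.18 under all scalings run. Leaving out 104-week male replicate 6, the lowest old male, took miR-30c-5p to -0.57 (adjusted p = 0.0157), below 1.5-fold. Markers of several lists differed too. The epithelial sum was 52.4 to 58.3 in 21-week and 33.2 to 41.1 in 104-week males, with 3 of 8 called lower. The sum of 4 leukocyte markers was 3.08 to 3.70 and 5.56 to 7.67, with 4 of 4 called higher. The erythroid sum was 1.15 to 2.19 and 2.55 to 4.46, with 2 of 3 called higher. The fibroblast and smooth muscle sum was 17.5 to 20.1 and 19.8 to 23, with 2 of 5 called higher. Of the striated muscle markers, 1 of 3 was called lower. The part of these markers in the result was not tested.

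In females no member was called between 21 and 104 weeks by limma or by the methods' tests, beside 2.89% of all miRNAs, and 0 had an unadjusted p under 0.05. Differences ran from -0.08 for miR-30d-3p to 0.17 for miR-30b-5p. miR-30c-5p measured 19.2, 13.6, 18.5 and 20.0 at 21 weeks and 15.0, 20.2, 24.1, 19.6 and 18.1 at 104 weeks. These values overlapped broadly, and the difference was 0.12 (SE 0.169, adjusted p = 1).

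**Figure D3:**
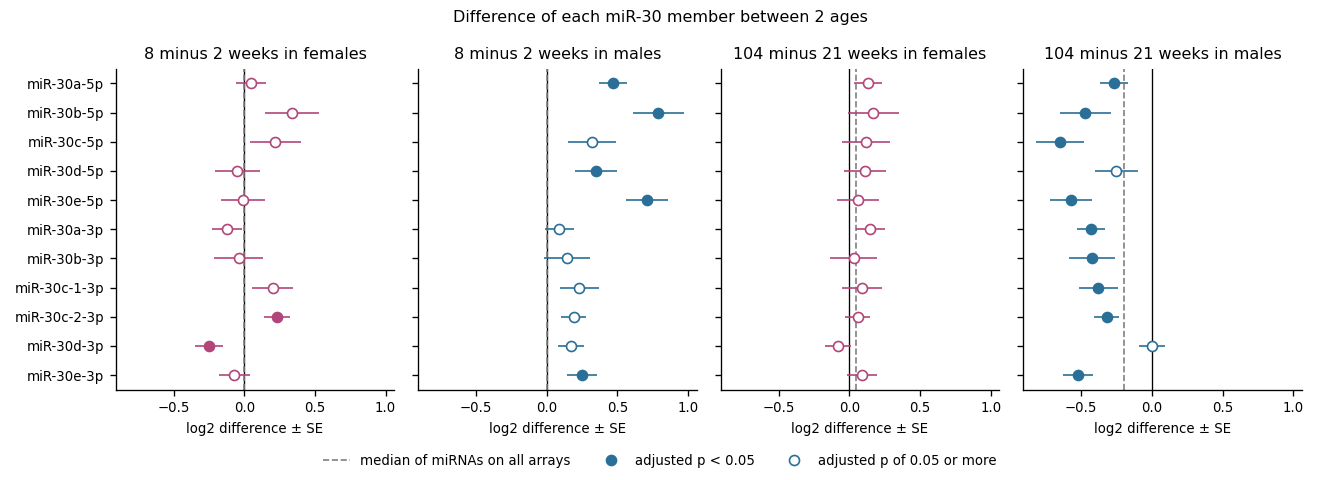
Log2 difference of each member, with its SE, for 8 minus 2 weeks and for 104 minus 21 weeks in females and in males, 1 panel each. Filled points have an adjusted p under 0.05 (limma), open points do not, and the dashed line is the median of the miRNAs detected on all arrays; 5 points are filled for 8 minus 2 weeks in males and 9 for 104 minus 21 weeks in males, where that median was -0.20.

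The change from 21 to 104 weeks differed between the sexes for 6 of 11 members, beside 19% of all miRNAs, in each case more negative in males. It was -0.76 for miR-30c-5p (SE 0.239, adjusted p = 0.0162), -0.63 for miR-30e-5p (adjusted p = 0.0236), -0.61 for miR-30e-3p (adjusted p = 0.00199), -0.58 for miR-30a-3p (adjusted p = 0.0023), -0.40 for miR-30a-5p (adjusted p = 0.0314) and -0.38 for miR-30c-2-3p (adjusted p = 0.0199). The median of the miRNAs detected on all arrays was -0.25 in the same contrast. With the percentile over those miRNAs, or over all 677, 0 of the 6 passed, and with quantile normalization 2 passed while miR-30a-5p stood at 0.00. Single arrays decided 4 of the 6. Without 21-week female replicate 4, the lowest young female, the values were -0.64 for miR-30c-5p (adjusted p = 0.0674), -0.48 for miR-30e-5p (adjusted p = 0.112) and -0.31 for miR-30a-5p (adjusted p = 0.139). Without 21-week male replicate 2, miR-30e-5p stood at -0.45 (adjusted p = 0.088). The passenger miR-30c-2-3p stood at -0.34 without 104-week female replicate 4 (adjusted p = 0.0507), 104-week male replicate 1 (adjusted p = 0.0575) or 21-week male replicate 1 (adjusted p = 0.0528). With the methods' tests it and miR-30e-5p did not pass (adjusted p = 0.0517 and 0.113), and 2 other members did that limma did not call. For miR-30a-3p and miR-30e-3p no single array ended the result.

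At 104 weeks the sexes were compared directly, over old animals that the preceding contrast also used. All 11 had a lower mean in males (10 when scaled over all 677 miRNAs), and miR-30c-5p was called, 1 of 11 beside 6.11% of all miRNAs. Males lay between 10.3 and 13.6 and females between 15.0 and 24.1 without overlap, with a difference of -0.66 (SE 0.169, adjusted p = 0.00184). Within the 4 slides that held both sexes it was -0.82, -0.81, -0.70 and -0.29. The call was lost without 104-week female replicate 3 (-0.58, adjusted p = 0.0121), with the percentile over miRNAs detected on all arrays (-0.47, adjusted p = 0.00665) and with quantile normalization (-0.37, adjusted p = 0.0621). It was also lost with the percentile over all 677 miRNAs (-0.52, adjusted p = 0.137), with normexp background correction (-0.51, adjusted p = 0.567) and with the brightest probe alone (-0.54, adjusted p = 0.0208, all limma).

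Without the fold limit 7 members were lower in 104-week males, beside 13.5% of all miRNAs. miR-30e-3p measured 1.07, 1.20, 1.26, 1.21 and 1.28 in females against 0.780 to 0.934 in males, a difference of -0.50 (SE 0.105, adjusted p = 0.000209). miR-30a-3p measured 2.08, 2.13, 2.28, 2.41 and 2.30 in females against 1.45 to 1.85 in males, a difference of -0.47 (adjusted p = 0.000269). miR-30a-5p (-0.43, adjusted p = 0.000742) and miR-30e-5p (-0.53, adjusted p = 0.00496) were separated as well, as was miR-30c-2-3p (-0.34, adjusted p = 0.00224). The seventh, miR-30c-1-3p (-0.43, adjusted p = 0.0171), overlapped. Groups lay apart downward for 6 members, beside 14.1% of all miRNAs, and the median of the miRNAs detected on all arrays was -0.16. With the percentile over those miRNAs 3 members kept an adjusted p under 0.05, and with the percentile over all 677 none did. Leukocyte markers summed to 3.32 to 3.57 in 104-week females and 5.56 to 7.67 in males, with 4 of 4 called higher. Epithelial markers summed to 50.1 to 55.9 in females and 33.2 to 41.1 in males, with 1 of 8 called lower. Of the fibroblast and smooth muscle markers, 1 of 5 was called higher in males. The part of these lists in the result was not tested.

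At 78 weeks no member was called, beside 6.75% of all miRNAs. Without the fold limit 4 were lower in males, all of them passengers, beside 15.4% of all miRNAs: miR-30a-3p (-0.49, SE 0.0959, adjusted p = 7.93e-05), miR-30b-3p (-0.47, adjusted p = 0.0225), miR-30c-2-3p (-0.42, adjusted p = 9.76e-05) and miR-30e-3p (-0.46, adjusted p = 0.000391). miR-30a-3p measured 2.04, 2.34, 2.37, 2.82 and 2.80 in females and 1.65, 2.03, 1.93, 1.73 and 1.45 in males. miR-30e-3p measured 1.15, 1.21, 1.28, 1.54 and 1.5 in females and 0.908, 1.01, 1.11, 1.01 and 0.828 in males. In both, the sexes came close but did not overlap. The groups lay apart for 3 members, with miR-30b-3p, beside 8.04% of all miRNAs. Within the 5 slides that held both sexes, miR-30a-3p was lower in males on 5 of 5, by -0.95 to -0.20, and miR-30e-3p by -0.86 to -0.21. The result depended on the scale: scaled over all 677 miRNAs, the 4 differences were -0.25 to -0.17 and none passed, while with quantile normalization miR-30a-3p (-0.48) and miR-30e-3p (-0.40) passed.

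None of the 5 guides passed at 78 weeks, though 4 had a lower mean in males, or 2 when scaled over all 677 miRNAs or quantile normalized. miR-30d-5p differed by -0.29 (SE 0.142, adjusted p = 0.136) and miR-30b-5p by -0.27 (SE 0.170, adjusted p = 0.27), close to the passenger miR-30c-1-3p (-0.30, adjusted p = 0.0837). miR-30e-5p differed by 0.01 (SE 0.138, adjusted p = 1), miR-30c-5p by -0.16 (SE 0.159, adjusted p = 0.545) and miR-30a-5p by -0.18 (SE 0.0936, adjusted p = 0.183). The median difference was -0.18 over guides and -0.44 over passengers, and -0.16 over the miRNAs detected on all arrays. Leukocyte markers summed to 2.59 to 3.51 in 78-week females and 4.05 to 7.10 in males, with 3 of 4 called higher. Epithelial markers summed to 51.9 to 63.3 in females and 38.1 to 50.6 in males, though 0 of 8 were called lower. Erythroid markers summed to 1.33 to 2.16 in females and 2.03 to 3.17 in males, with 2 of 3 called higher. Of the striated muscle markers, 1 of 3 was called lower in males. The part of these lists in the result was not tested.

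At 5, 6, 8, 15 and 21 weeks no member had an adjusted p under 0.05 between the sexes by limma. The only unadjusted p under 0.05 among them belonged to miR-30c-2-3p at 15 weeks (-0.19, adjusted p = 0.173). Over all 8 ages, 1 of 88 tests of members was called, beside 3.34% over all miRNAs, and the methods' tests gave the same count.

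The age profile as a whole differed between the sexes for 6 of 11 members, beside 27.7% of all miRNAs (limma interaction). The male minus female difference ranged over the 8 ages by 0.61 for miR-30a-3p (adjusted p = 0.000219), 0.62 for miR-30e-3p (adjusted p = 0.000283), 0.77 for miR-30e-5p (adjusted p = 0.00691), 0.59 for miR-30a-5p (adjusted p = 0.00442), 0.46 for miR-30c-2-3p (adjusted p = 0.00381) and 0.96 for miR-30c-5p (adjusted p = 0.0303). Those of miR-30b and miR-30d did not pass, with 0.64 for miR-30b-5p (adjusted p = 0.287) and 0.46 for miR-30d-5p (adjusted p = 0.337). The miR-30c-5p result was lost on leaving out any of 6 arrays, all of 104 weeks, with adjusted p from 0.0543 to 0.111. Of the 6, 1 passed when scaled over all 677 miRNAs (miR-30e-5p), 1 with normexp (miR-30e-3p), 2 with quantile normalization (miR-30a-3p and miR-30e-3p) and 3 with the brightest probe alone.

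Guide and passenger of a hairpin are made together, so their balance was followed as the log2 signal of the 5p arm minus that of the 3p arm in the same array. In that difference the array's scale cancels. The level itself depends on the probes, so only its changes can be read. It could be formed for 23 hairpins detected in both arms on all arrays, of which 5 were miR-30 hairpins (miR-30a, miR-30b, miR-30c-1, miR-30c-2 and miR-30e). The differences of miR-30c-1 and miR-30c-2 used the same miR-30c-5p value, which could come from either hairpin. Neither is therefore the balance of a single hairpin, and they are not independent of each other.

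For miR-30b this balance was called with age in both sexes, though not under all settings. In males 1 of 5 hairpins was called, beside 30.4% of 23, and in females 1 of 5, beside 26.1% of 23. Its mean was 5.27 ± 0.751 (SD, n = 5) in 2-week males and 6.17 ± 0.228 (n = 5) in 21-week males, and the range over ages was 0.89 (adjusted p = 0.0213). Those ages lay on different slides, and the male call was lost with slide as a fixed block (adjusted p = 0.0511), at 2 to 8 weeks alone (0.66, adjusted p = 0.378), at 15 to 104 weeks alone (0.48, adjusted p = 0.115) and without 2-week male replicate 4 (0.77, adjusted p = 0.0504). In females it was 5.27 ± 0.527 (n = 4) at 2 weeks, 5.49 ± 0.441 (n = 5) at 78 weeks and 6.23 ± 0.280 (n = 5) at 104 weeks, a range of 0.95 (adjusted p = 0.0402). The call in females was lost on leaving out any of 14 arrays (adjusted p 0.0526 to 0.0848), with quantile normalization (0.78, adjusted p = 0.147), with the brightest probe alone (0.78, adjusted p = 0.141), with normexp (0.98, adjusted p = 0.535), with the replicate block (0.95, adjusted p = 0.084) and at 2 to 8 weeks alone (0.38, adjusted p = 0.751), but not at 15 to 104 weeks alone (0.73, adjusted p = 0.0455). miR-30b-3p gave dim signals near the floor. The age by sex interaction of the arm difference passed for 0 of 5 hairpins in limma.

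Between 2 and 8 weeks in males 1 of 5 hairpins was called, miR-30b by 0.66 (adjusted p = 0.0473), beside 17.4% of 23, and 3 had an adjusted p under 0.05, beside 26.1% higher. The others were miR-30e by 0.46 (adjusted p = 0.0473) and miR-30a by 0.38 (adjusted p = 0.0171), in each case toward the guide. The miR-30c hairpins differed by 0.09 (miR-30c-1) and 0.13 (miR-30c-2), and the median of the 23 hairpins was 0.13. Without 2-week male replicate 1, the array highest in miR-122-5p, miR-30e stood at 0.46 (adjusted p = 0.0925). The miR-30a difference was 2.84, 3.02, 2.99, 2.48 and 2.79 in 2-week males and 3.29, 3.21, 3.08 and 3.25 in 8-week males. All 8-week arrays lay above all 2-week arrays, as for 2 of the 5 hairpins, beside 13% of 23. For miR-30b it was 4.66, 6.54, 5.30, 4.79 and 5.07 at 2 weeks and 6.10, 5.45, 5.82 and 6.36 at 8 weeks. Here the groups overlapped through 2-week male replicate 2, and the call was lost on leaving out any of 7 arrays, among them 2-week male replicate 1 (0.51, adjusted p = 0.169), while the methods' tests called 0 of the 5. In females 0 of 5 had an unadjusted p under 0.05.

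From 21 to 104 weeks none of the 5 hairpins had an adjusted p or an unadjusted p under 0.05 in either sex (limma), and the methods' tests called 0. At 78 weeks it was higher in males for miR-30e by 0.47 (adjusted p = 0.0429) and for miR-30a by 0.32 (adjusted p = 0.0429), 2 of 5 beside 21.7% of 23, though below 1.5-fold. The miR-30a difference was 3.22, 2.96, 2.84, 2.77 and 2.70 in females and 3.39, 3.01, 3.25, 3.05 and 3.38 in males, and that of miR-30e was 2.12, 1.83, 1.63, 1.45 and 1.25 in females and 2.40, 1.96, 2.12, 1.92 and 2.23 in males. Both overlapped through 78-week female replicate 1, and without that array miR-30e was called (0.59).

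**Figure D4:**
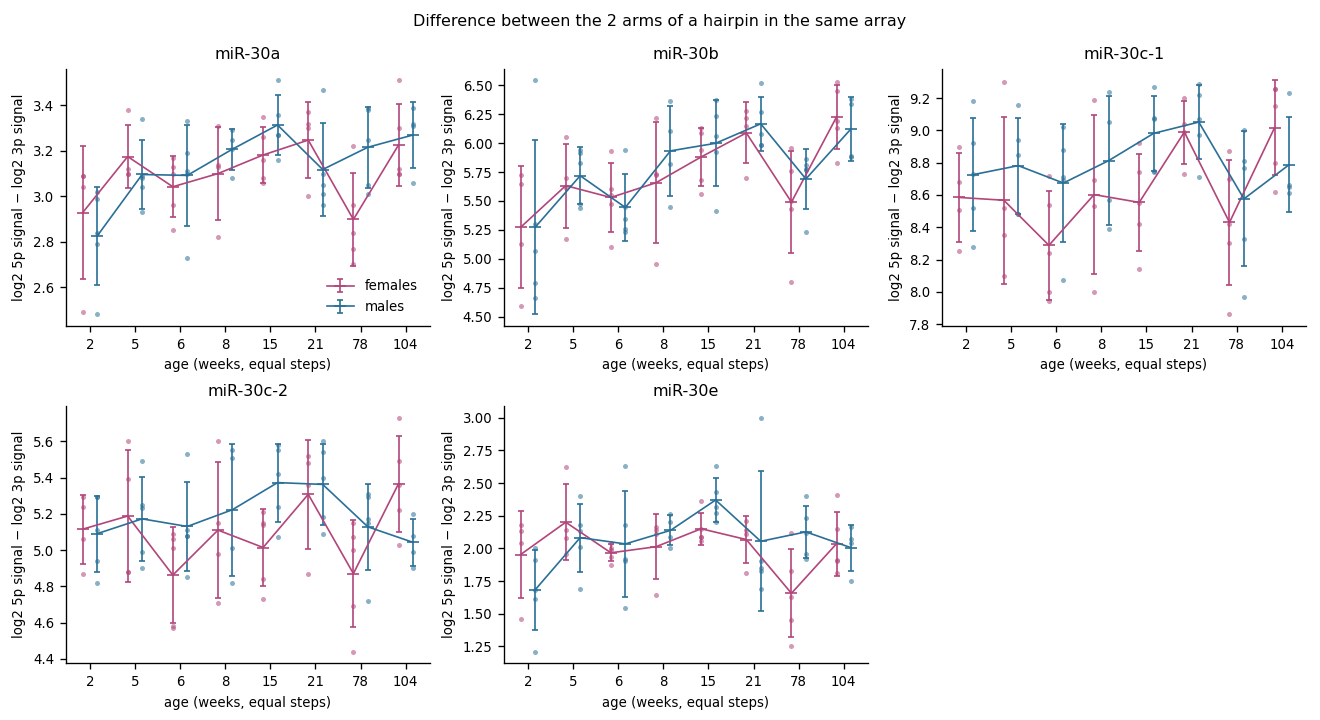
Log2 of the 5p signal minus the 3p signal in the same array for the miR-30 hairpins by age in weeks, drawn at equal steps, in females and males, with arrays as points and dashes as group means with SD (n = 4 or 5). The miR-30a difference of 8-week males, 3.08 to 3.29, lies above that of 2-week males, 2.48 to 3.02.

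Members of 1 arm varied together between animals. After removal of the group means, over 74 arrays, Pearson's r was 0.514 in the median between guides (0.113 to 0.812) and 0.468 between passengers (0.107 to 0.801). Between a guide and a passenger it was 0.0484 in the median (-0.341 to 0.538). The closest pairs were miR-30a-5p with miR-30e-5p (0.812), which differ by 1 base, miR-30a-3p with miR-30e-3p (0.801) and miR-30b-5p with miR-30c-5p (0.790). Whether the probes distinguish miR-30a-5p from miR-30e-5p was not tested. Arms of the same hairpin were less alike, from -0.112 for miR-30c-1 to 0.291 for miR-30a. For the miR-30c hairpins the guide value was the shared miR-30c-5p. These correlations share the array's scale, slide and labelling reaction, and are given as descriptions.

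Among 156 other miRNAs detected on all arrays, the mean profile of the guides over the 16 group means was most like those of miR-194-5p (r = 0.905), miR-192-5p (0.859), miR-218a-5p (0.844), miR-26a-5p (0.839) and miR-186-5p (0.837). It was least like miR-214-3p (-0.82), miR-199a-3p (-0.793) and let-7i-5p (-0.775), and the median was 0.0758. miR-194-5p and miR-192-5p are among the 9 epithelial markers whose sums are given above, as are miR-429 and miR-200b-3p below. miR-214-3p and miR-199a-3p are among the 5 fibroblast and smooth muscle markers. The mean of the passengers was most like miR-429 (0.897), miR-200b-3p (0.896), miR-352 (0.847), let-7c-5p (0.81) and miR-23b-3p (0.802), with a median of 0.145. The 16 points share arrays and scale, and likeness of profile is given as a description.

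**Figure D5:**
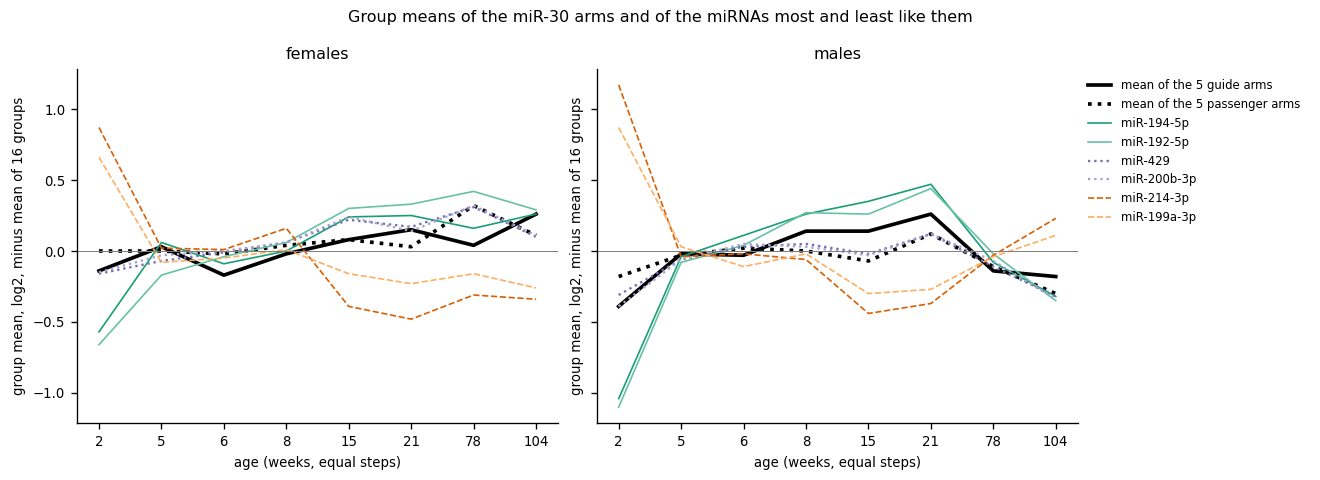
Group means on the log2 scale, centred on their own mean over the 16 groups, for the mean profiles of the 5 guides and of the 5 passengers detected on all arrays, and for the miRNAs most and least like them, by age in weeks at equal steps and by sex. The guide profile runs with miR-194-5p (r = 0.905) and against miR-214-3p (r = -0.82).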

How the data were processed

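The authors hybridized total RNA of 74 whole kidneys, 1 rat per array, to Agilent miRNA arrays of 1 colour that carry 20 spots for each miRNA. The deposited scanner files, made by Feature Extraction 10.7.3.1 per the file headers, hold background-subtracted intensity summed over the probes of each miRNA, with other marks for detected and saturated spots. A deposited table of processed signal was not used for values: 69 of its 74 columns held the intensities of another array than the sample they name. Array and sample were paired through the scanner files.

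Intensities were divided by each array's 75th percentile (81.2 to 283, median 156) over the 311 miRNAs detected on at least 1 array, raised to a common floor of 0.0171, and log2 transformed. The authors set the floor before scaling. limma 3.58.1 in R 4.3.3 fitted 1 mean for each of 16 groups (58 residual degrees of freedom), and age was tested within females (28) and males (30). This took the place of the authors' tests, which were run as an alternative ("the methods' tests"). P-values were adjusted by Benjamini-Hochberg over 311 miRNAs, or 23 hairpins for arm differences. A call needed an adjusted p under 0.05 and, except in interactions and differences of changes, a fold of 1.5. The code was tested on simulated data made from the 166 miRNAs detected on all arrays, for 104 minus 21 weeks in males, and called 16 of 20 miRNAs changed by 1 on the log2 scale, 16 of 20 by 0.75 and 8 of 20 by 0.585. The simulated noise was independent, without slide effects, and changes of all these sizes were present at once. Adjustment there was over 166 miRNAs, not 311. These shares are therefore not the detection rates of the tests on the data.

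All members were named, with the 5 miRNAs most like the mean guide profile. The members, marker lists and contrasts were chosen with earlier results of these data known. Replicate numbers did not pair the arrays: deviations of same-numbered arrays of both sexes correlated at -0.0513 (28 pairs) and of others at 0.0116 (143 pairs). Arrays of 1 slide correlated at 0.217 and of different slides at -0.0201, so slide was tried as a block. The number of arrays limits the precision. Alternatives covered scaling, background correction, the floor, filters, slide, scan day, probes and each array left out.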

Additional observations from a re-analysis of the deposited data

Results flagged for a closer look

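Arrays far from the others of their group were looked for in 163 sets of values, and 9 (5.52%) held one, where chance gives about 1 in 20. The guide miR-30e-5p was at 3.51 in 21-week female replicate 4 (nearest other array 5.19) and at 8.27 in 21-week male replicate 2 (nearest 4.60). The guide miR-30d-5p was at 4.03 in 78-week male replicate 6 (nearest 5.39). Among passengers, miR-30a-3p was at 2.12 in 21-week female replicate 6 (nearest 1.98), where miR-30d-3p was at 0.0249 (nearest 0.0179). miR-30b-3p was at 0.0287 in 2-week male replicate 2 (nearest 0.0685) and at 0.0635 in 5-week male replicate 3 (nearest 0.0756). miR-30c-1-3p was at 0.0466 in 2-week female replicate 3 (nearest 0.0302), and miR-30c-2-3p was at 0.527 in 104-week female replicate 4 (nearest 0.459).

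Differences between the sexes in a change with age, by the limma test of that difference, were listed for their size. From 21 to 104 weeks, male minus female, they were -0.76 for miR-30c-5p, -0.63 for miR-30e-5p, -0.61 for miR-30e-3p, -0.58 for miR-30a-3p, -0.40 for miR-30a-5p and -0.38 for miR-30c-2-3p. From 2 to 8 weeks they were 0.71 for miR-30e-5p, 0.42 for miR-30a-5p and 0.42 for miR-30d-3p, whose 2-week males all lay at the floor. Over all 8 ages the range of the male minus female difference was 0.96 for miR-30c-5p, 0.77 for miR-30e-5p, 0.62 for miR-30e-3p, 0.61 for miR-30a-3p, 0.59 for miR-30a-5p and 0.46 for miR-30c-2-3p. The 21-week arrays that stood apart for miR-30e-5p are among the 4 arrays without any 1 of which its difference between the sexes in 104 minus 21 weeks was lost (-0.48 and -0.45 without them).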

How the results depend on the processing

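Counts of members called are given as reported and then under each alternative that moved them. For age in females the count was 1, and it was 0 with normexp, 2 with a stricter filter on detection, 5 without the fold limit, 0 with slide as a fixed and 2 with slide as a random block, 0 at 2 to 8 weeks alone and 0 at 15 to 104 weeks alone. For age in males it was 3, and 5 when scaled over all miRNAs and 7 without the fold limit. For sex at each age it was 1, and 2 with the floor set before scaling, 0 with the percentile over all miRNAs, 0 with quantile normalization, 0 with normexp, 0 with the brightest probe alone and 13 without the fold limit. For 8 minus 2 weeks in females it was 0, and 2 without the fold limit. For 8 minus 2 weeks in males it was 2, and 1 with the median as the scale, 1 with quantile normalization, 0 with normexp and 5 without the fold limit. For 104 minus 21 weeks in males it was 1, and 0 with the percentile over miRNAs detected on all arrays, 0 with normexp, 0 with the brightest probe and 9 without the fold limit. For the difference between the sexes in 104 minus 21 weeks it was 6, and 0 with the percentile over miRNAs detected on all arrays, 0 over all miRNAs, 2 with quantile normalization, 0 with normexp and 3 with the brightest probe. For that in 8 minus 2 weeks it was 3, and 1 with the floor first, 0 with the percentile over all miRNAs, 1 with quantile normalization, 0 with normexp, 1 with all miRNAs tested and 1 with the brightest probe. For the interaction it was 6, and 1 with the percentile over all miRNAs, 2 with quantile normalization, 1 with normexp and 3 with the brightest probe. For the arm difference with age in females it was 1, and 0 with quantile normalization, 0 with normexp, 2 with slide as a fixed and 2 as a random block, 2 with scan day as a block, 0 at 2 to 8 and 2 at 15 to 104 weeks alone, and 0 with the brightest probe. For that in males it was 1, and 2 with quantile normalization, 2 with normexp, 2 without the fold limit, 0 with slide as a fixed block, 0 at 2 to 8 and 0 at 15 to 104 weeks alone. For the arm difference between the sexes it was 0, and 2 without the fold limit. The causes were not tested.

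Leaving out each array in turn gave 1 to 3 members for age in females, 3 to 3 for age in males, 0 to 2 for sex at each age, 0 to 0 for 8 minus 2 and for 104 minus 21 weeks in females, 2 to 2 for 8 minus 2 and 0 to 2 for 104 minus 21 weeks in males. It gave 3 to 8 for the difference between the sexes in 104 minus 21 weeks, 0 to 3 in 8 minus 2 weeks and 5 to 7 for the interaction. For arm differences it gave 0 to 2 with age in females, 0 to 2 in males and 0 to 1 between the sexes.

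With the replicate number as a block, although the numbers do not pair the arrays, the count for 104 minus 21 weeks in males was 2, adding miR-30e-5p, and that for the arm difference with age in females was 0. The 1 called value that changed sign was the difference between the sexes in 104 minus 21 weeks for miR-30a-5p, at 0.00 with quantile normalization. The scan-day block, the median scale and the within-slide differences were chosen after seeing the data. Dim members, miR-30b-3p, miR-30c-1-3p and miR-30d-3p, lie near the floor, which limits what can be seen of them.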
